A study of Mus musculus with 2 samples.

Results

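Genes of myeloid granules and immune signalling were described in the blood cells of Gata1- chimeric mouse embryos: Cpa3, Srgn, Mpo, Prtn3, Plac8, Fcer1g, Tyrobp, Alox5ap, Coro1a and Laptm5. These members were taken by name, as 10 of the 29453 genes in the deposited tables of spliced and unspliced molecules, and all 10 were found. They were chosen with earlier results of these data known. TdTomato-marked embryonic stem cells with a 38 base-pair frameshift in exon 4 of Gata1 (Gata1- in the paper, Gata1-/- in the labels), from 1 clone, were injected into wildtype C57BL/6 blastocysts at E3.5. The 6 chimeric embryos were pooled, dissociated and sorted into tdTom+ mutant cells, labelled E8.5, and tdTom- wildtype host cells, labelled E8.6 (E8.5 in the paper), with 1 droplet library (10X v3) for each. No library of tdTom+ cells with intact Gata1 was analysed here, so effects of the clone, the injection or the reporter cannot be told apart from those of Gata1.

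Myeloid cells pack proteases, peroxidase and proteoglycan into granules. Immune receptors that lack a signalling tail of their own borrow one from small adaptor proteins, which carry a short tyrosine motif (the ITAM) and recruit the kinase Syk. PU.1, encoded by Spi1, is a transcription factor that drives many such genes. Gata1 is required for erythroid and megakaryocytic maturation, and both factors have been described as opposing each other in blood progenitors, a view that has also been disputed.

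After called doublets were left out, 8546 tdTom+ and 8656 tdTom- cells remained, of which 1616 and 1478 were blood cells. Their median depth was 21163 and 18898 spliced UMIs (unique molecules), and the median mitochondrial share was 2.82% and 3.06%. Cells were clustered without the 10 members, Spi1, Gata1 and the globin genes. The blood cells of the fractions hardly met: 1375 tdTom+ cells were blood progenitor-like and 35 erythroid-like, against 3 and 1385 tdTom- cells, and 1 tdTom+ and 62 tdTom- cells were megakaryocyte-like. A sub-cluster led by Fcer1g, Alox5ap and Spi1 held 205 tdTom+ and 28 tdTom- cells. Its best matching class was endothelial, with 5 markers raised, against 4 myeloid and 4 blood progenitor markers. It was left unnamed, since no endothelial marker was among its 10 leading genes, a rule added after the data were seen. Its cells were counted as blood cells. Gata1 itself was at 27.1 CPM (UMIs per 1000000 spliced UMIs of the same cells) in tdTom+ against 131 CPM in tdTom- blood cells, and 58.4% of its tdTom+ molecules were unspliced, against 8.11%. A 3' tag library does not read the deletion, so these values do not check it. The fractions shared 18 cell barcodes, of which 0 were on blood cells.

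The promoter sequence of the members was searched for short motifs, as planned. The RefSeq promoter table (GRCm38.p6) held 11 promoters for 8 of the 10 members, with Tyrobp and Alox5ap not in it. In the 250 bases before the start, on both strands, GAGGAA (bound by ETS factors such as PU.1) was in 4 of the 11 and in 23.3% of all 32851 promoters, and the longer GAGGAAGT, which contains it, in 2 of the 11 and 2.44% of all. AGATAA, bound by GATA factors, was in 1 of the 11 and 9.99% of all, TGATAA in 0 and 7.94%, and TGTGGT, bound by Runx factors, in 3 and 14.0%. The stretches below are those of the only members with GAGGAAGT, Mpo and Prtn3, and of the only member with AGATAA, Cpa3. Capitals mark the matches, ACCACA being TGTGGT on the other strand. A match describes the letters and is not a binding site.
Cpa3, chr3:20242182-20242431, minus strand: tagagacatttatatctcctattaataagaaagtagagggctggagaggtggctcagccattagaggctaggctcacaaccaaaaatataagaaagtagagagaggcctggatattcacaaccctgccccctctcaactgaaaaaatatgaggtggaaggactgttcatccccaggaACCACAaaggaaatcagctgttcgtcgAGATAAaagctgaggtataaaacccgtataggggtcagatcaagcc
Mpo, chr11:87793534-87793580, plus strand: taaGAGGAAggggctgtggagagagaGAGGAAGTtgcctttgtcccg
Prtn3, chr10:79879417-79879613, plus strand: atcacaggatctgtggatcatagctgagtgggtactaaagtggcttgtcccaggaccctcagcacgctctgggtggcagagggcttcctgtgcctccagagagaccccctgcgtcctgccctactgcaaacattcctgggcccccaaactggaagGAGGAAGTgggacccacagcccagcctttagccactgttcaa
The Cpa3 stretch lies directly upstream of the gene, with AGATAA 41 bases before the start. The Mpo stretch was shortened to the 47 bases before the first exon in GENCODE M21. The Prtn3 stretch lies upstream of the main first exon and within an intron of a longer annotated transcript.

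All 10 members were at least 2-fold higher in tdTom+ than in tdTom- blood cells, beside 15.5% of the 11801 genes with at least 20 UMIs in both fractions together, and 0 were lower, beside 4%. With 1 library per fraction there is no replicate check, no test was run, and every interval (95%) covers counting error only. The median log2 fold was 3.96 over the members and 0.25 over all genes tested. A gene with few tdTom- UMIs reaches the minimum of 20 through the tdTom+ cells where it is high, so the counts of members past 2-fold here and in the smaller groups describe these UMIs and are no support for a difference. The members were also chosen with earlier results of these data known, so the share of all genes beside them is no test of the set. Globin transcripts took 1.72% of the UMIs of tdTom+ and 9.53% of those of tdTom- blood cells. This first comparison sets mostly progenitor-like against mostly erythroid-like cells, so the makeup of the fractions moves with it. Of 7 myeloid markers 5 were at least 2-fold higher and 1 lower in tdTom+ blood, with a summed level of 19.2 against 4.84 CPM, and what they contribute was not tested.

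Of the granule genes, Cpa3, a carboxypeptidase of mast cell granules, had 676 UMIs (19.3 CPM) in tdTom+ and 2 UMIs (0.0701 CPM) in tdTom- blood cells, a log2 fold of 8.11 (6.25 to 11.16). Srgn, the core protein of the proteoglycan that holds granule contents, was at 23.4 and 0.946 CPM, a log2 fold of 4.63 (4.08 to 5.24). Mpo, the peroxidase of primary granules, was at 15.7 and 0.421 CPM, a log2 fold of 5.22 (4.40 to 6.18). These 3 genes had 27 or fewer UMIs in the whole tdTom- blood group. Prtn3, a serine protease of the same granules, was at 16.4 and 1.16 CPM, a log2 fold of 3.83 (3.32 to 4.38). Neural-like cells of the tdTom- library, set beside blood for comparison, had Prtn3 at 1.14 CPM, and tdTom- erythroid-like cells at 0.557 CPM. A pair of tdTom- cells with 1441 spliced UMIs together held 7 of the 27 Srgn UMIs and 5 of the 58 Tyrobp UMIs of tdTom- blood.

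Plac8, a cysteine-rich protein of myeloid and other cells, was the most abundant member, at 151 and 7.57 CPM, a log2 fold of 4.32 (4.12 to 4.52). Among the signalling adaptors, Fcer1g, the gamma chain of Fc receptors, was at 82.3 and 8.38 CPM, a log2 fold of 3.30 (3.11 to 3.49). Tyrobp, the adaptor DAP12, was at 33.3 and 2.03 CPM, a log2 fold of 4.03 (3.65 to 4.44). Both adaptors were thus far apart between the fractions. Alox5ap, which presents arachidonic acid to 5-lipoxygenase for leukotriene synthesis, was at 45.6 and 4.87 CPM, a log2 fold of 3.23 (2.97 to 3.49). Coro1a, an actin regulator of leukocytes, was at 42.4 and 2.87 CPM, a log2 fold of 3.88 (3.56 to 4.22). Laptm5, a lysosomal membrane protein of blood cells, was at 66.2 and 5.68 CPM, with a log2 fold of 3.54 (3.31 to 3.78). In the tdTom- library, neural-like cells had Plac8 at 4.65 CPM and Coro1a at 4.69 CPM, whereas erythroid-like cells had 6.54 and 0.111 CPM. Of the 82 Coro1a UMIs of tdTom- blood, 56 lay in the 28 Fcer1g-led cells and 23 in megakaryocyte-like cells. In tdTom+ blood the order from high to low was Plac8, Fcer1g, Laptm5, Alox5ap, Coro1a, Tyrobp, Srgn, Cpa3, Prtn3 and Mpo. The counting intervals of Prtn3 and Mpo overlapped, as did those of Alox5ap and Coro1a. CPM of 3' tags are not divided by gene length.

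**Figure D1:**
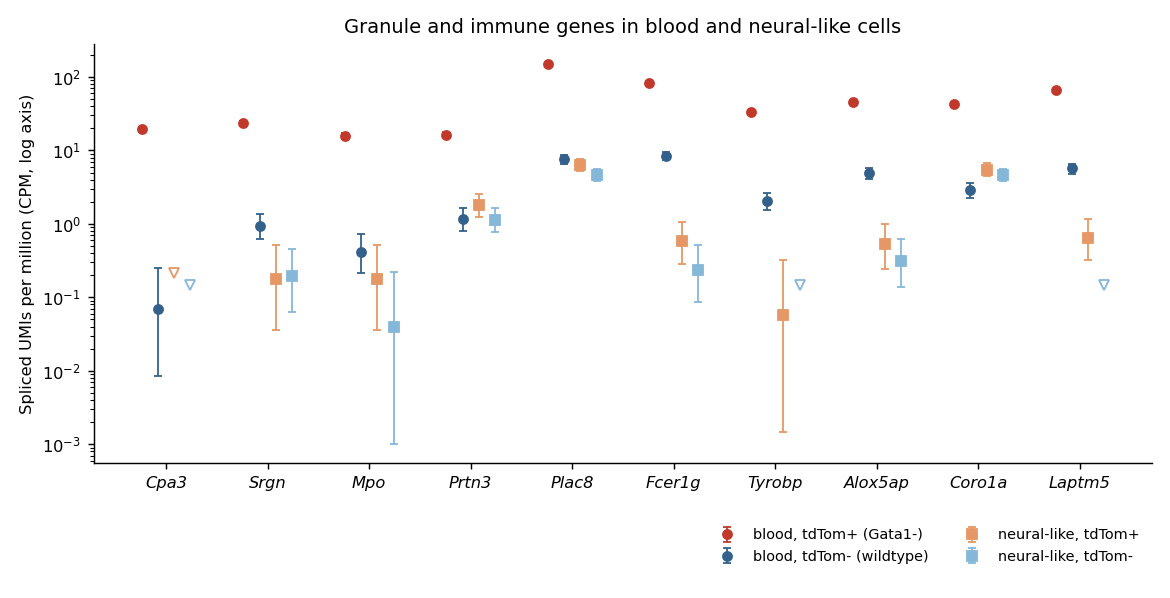
Level of each member in CPM on a log axis, in blood cells (circles) and neural-like cells (squares) of the tdTom+ and tdTom- libraries, with exact Poisson 95% intervals, where open triangles stand for 0 UMIs and sit at the upper bound. In every gene the tdTom+ blood cells lie highest, and within the tdTom- library blood cells lie above neural-like cells for Plac8, below them for Coro1a and level with them for Prtn3.

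A summed level mixes how many cells hold a gene with how much each holds. After thinning every cell to 5000 spliced UMIs, a Plac8 UMI was found in 34.9% (32.6% to 37.3%, exact Clopper-Pearson) of 1603 tdTom+ and 2.5% of 1440 tdTom- blood cells, against 2.54% and 2.14% of neural-like cells (median depths before thinning 16612 and 14936). Laptm5 was found in 23.5% of tdTom+ and 2.5% of tdTom- blood cells. The other 8 members were found in 4.74% (Mpo) to 14.2% (Fcer1g) of tdTom+ and 0.0694% (Cpa3) to 1.94% (Fcer1g) of tdTom- blood cells. In the tdTom- library Coro1a was in 2.33% of neural-like against 0.972% of blood cells, and Prtn3 in 0.567% against 0.486%. Srgn, Fcer1g, Tyrobp, Alox5ap and Laptm5 had lower shares in neural-like than in blood cells there. Without thinning the tdTom+ shares were 58.8% for Plac8, 50.5% for Laptm5 and 19.2% for Cpa3. For Prtn3 and Tyrobp the molecules were concentrated: 1 tdTom+ cell held 53 of the 574 Prtn3 UMIs, and the 10 cells richest in Tyrobp held 29.7% of its UMIs. Plac8 and Laptm5 were spread more widely, over 950 and 816 tdTom+ cells with at most 92 and 20 UMIs in a cell. The shares of cells were thus graded over the members, with Plac8 and Laptm5 at the upper end.

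The members fell into 3 patterns over the tdTom+ sub-clusters. Tyrobp, Alox5ap, Fcer1g, Coro1a, Mpo, Prtn3 and Srgn had from 57.8% (Srgn) to 89.2% (Tyrobp) of their tdTom+ blood UMIs in the 205 cells of the Fcer1g-led sub-cluster, which are 12.7% of tdTom+ blood cells. Laptm5 and Plac8 had 30.8% and 21.9% there, and reached across all progenitor-like sub-clusters. Cpa3 had 1.18% there and was the only member lower in this sub-cluster than in every blood progenitor-like one.

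Values followed the sub-clusters in that way. In the progenitor-like sub-clusters led by Slc32a1, Car2 and Homer2 (471 cells), by Slc32a1, Car2 and Myb (376 cells), by Myb (264 cells) and by Spi1 (264 cells), Cpa3 was at 10.5, 22.5, 29.7 and 29.6 CPM, and in the Fcer1g-led sub-cluster at 2.06 CPM. Plac8 was at 69.0, 92.8, 117, 314 and 297 CPM in the same order, and Laptm5 at 12.7, 27.6, 55.4, 147 and 183 CPM. Srgn was at 0.0985, 0.742, 2.22, 53.9 and 122 CPM. The step between the Myb-led and the Spi1-led sub-cluster was therefore large for Srgn and absent for Cpa3. Spi1 was at 16.6, 40.2, 57.9, 261 and 491 CPM, and the share of cells with globin was 99.4%, 97.6%, 93.9%, 81.8% and 15.1%. In the tdTom- erythroid-like sub-clusters of over 200 cells, Plac8 was at 4.09 to 12.1 CPM and every other member at 2.07 CPM or less. The tdTom- megakaryocyte-like cells stood apart, with Fcer1g at 79.4 CPM, Laptm5 at 65.5 CPM and Alox5ap at 25.3 CPM.

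**Figure D2:**
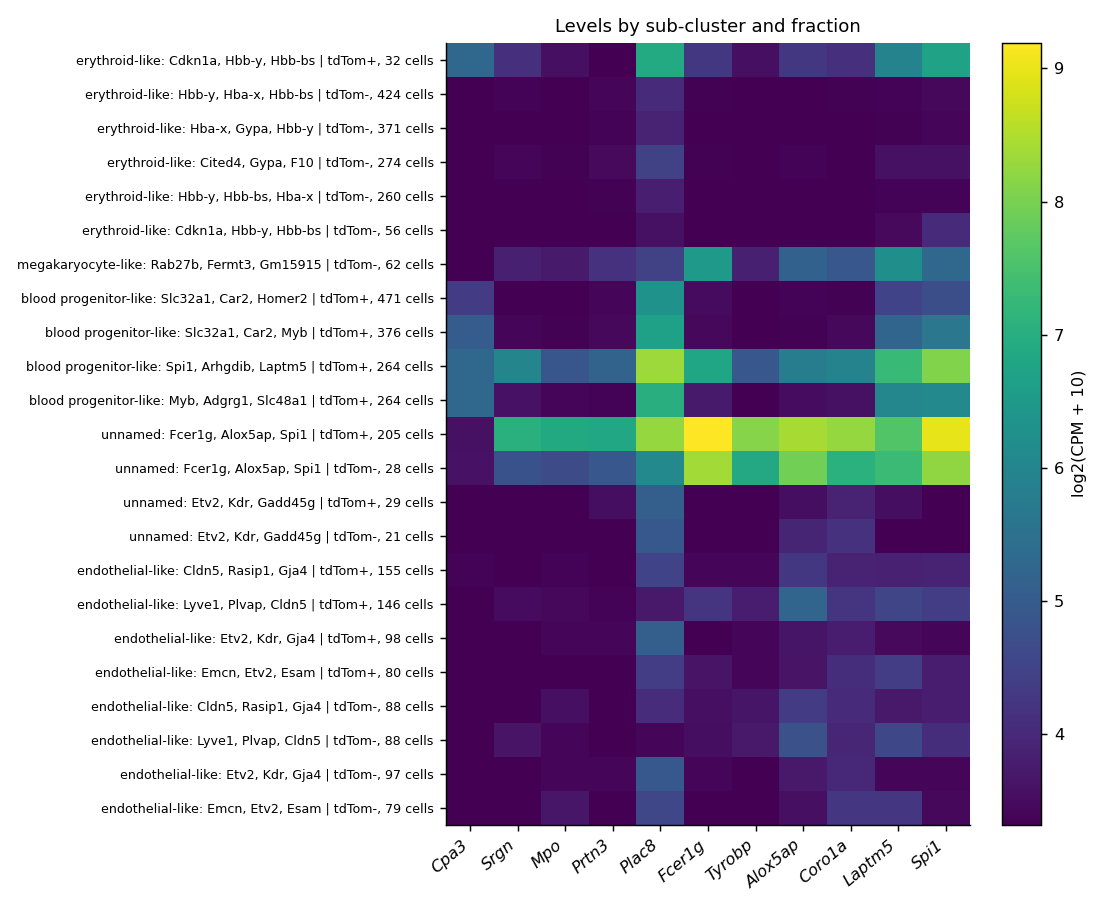
Levels of the members and Spi1 as log2(CPM + 10) in each sub-cluster and fraction of at least 20 haemato-endothelial cells, with rows named by class, leading genes, fraction and number of cells. Most members are brightest in the Fcer1g-led sub-cluster of both fractions, whereas Cpa3 is seen in tdTom+ progenitor-like cells and in the 32 tdTom+ cells led by the stress gene Cdkn1a (29.5 CPM).

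Since few sub-clusters held both fractions, tdTom+ cells were matched to the tdTom- sub-cluster most frequent among their 15 nearest tdTom- cells. Early erythroid-like cells were the first of these groups, with 1217 matched tdTom+ cells, most of them blood progenitor-like by name, and 274 tdTom- cells. All 10 members were at least 2-fold higher in tdTom+ cells here, beside 10% of 10599 genes, and 0 lower, beside 4.28%. Cpa3 had 599 UMIs (22.1 CPM) in tdTom+ and 0 in tdTom- cells, 39.1-fold higher with 3 counts set as a floor for the tdTom- group. Such floor values leave out the counting error of the tdTom+ UMIs and are not limits of an interval. Plac8 was at 124 and 12.1 CPM, a log2 fold of 3.36 (3 to 3.74), and Laptm5 at 44.7 and 2.07 CPM, a log2 fold of 4.43 (3.58 to 5.43). These 3 genes thus differed in matched cells as well as over all blood. The remaining genes were low in both fractions. Fcer1g had 190 UMIs against 1, a log2 fold of 5.22 (2.72 to 10.53). With the floor, Coro1a (123 UMIs against 0) was 8.03-fold and Tyrobp (35 against 0) 2.28-fold higher. Srgn, Mpo and Alox5ap had log2 folds of 2.81, 3.26 and 2.82, with 4, 1 and 2 UMIs in tdTom- cells. Prtn3 had 85 UMIs against 6, a log2 fold of 1.47 (0.29 to 2.96). With cosine in place of Euclidean distance for the matching, 813 tdTom+ cells remained, 6 of 7 members tested passed 2-fold, and Prtn3 turned to -0.57. The share of all genes past 2-fold was not recomputed for this or the other alternatives given below. The match was not complete: summed erythroid markers were at 17821 CPM in tdTom+ against 51040 CPM in tdTom- cells with 4 of 7 at least 2-fold lower, and summed progenitor markers at 839 and 287 CPM with 4 of 6 higher. Their part in the result was not tested.

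Among megakaryocyte-like cells (94 matched tdTom+ and 62 tdTom- cells), 10 of 10 members were at least 2-fold higher in tdTom+ cells, beside 5.18% of 7609 genes, and 0 lower, beside 5.07%. Srgn, which is also packed in platelet granules, was at 82.5 and 4.37 CPM, a log2 fold of 4.24 (2.99 to 5.88). Plac8 was at 245 and 12.2 CPM, a log2 fold of 4.33 (3.57 to 5.21). Fcer1g, which pairs with the platelet collagen receptor, was closer, at 178 and 79.4 CPM, or 1.16 on the log2 scale (0.83 to 1.51). The folds of Laptm5, Alox5ap and Coro1a were 1.30, 1.82 and 1.99 on the log2 scale. Fcer1g and these 3 genes had the highest levels in tdTom- megakaryocyte-like cells, 20.1 to 79.4 CPM, and Plac8 came next. Of the matched tdTom+ cells, 85 came from the Spi1-led progenitor-like sub-cluster, and summed megakaryocyte markers were at 151 CPM in tdTom+ against 375 CPM in tdTom- cells (4 of 6 lower). Summed erythroid markers were at 3741 against 9767 CPM (5 of 7 lower) and summed progenitor markers at 1064 against 446 CPM (4 of 6 higher), so the groups differ in more than their fraction, and the part of these markers in the result was not tested. Matching by cosine distance took away the 2-fold difference of Fcer1g (-0.081), Alox5ap (0.15) and Coro1a (0.57), and left 7 of 10 members past it.

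**Figure D3:**
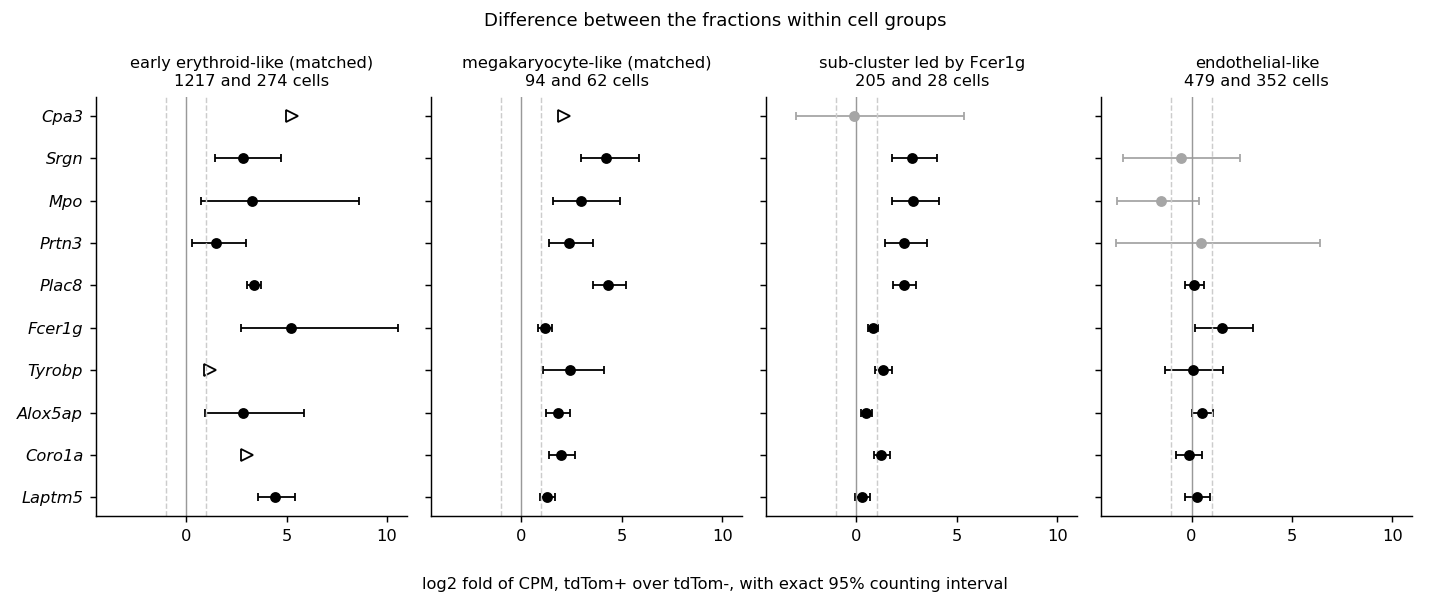
Log2 fold of CPM, tdTom+ over tdTom-, for each member in 4 cell groups, with exact 95% counting intervals and dashed lines at 2-fold. Open triangles show the fold with a floor of 3 counts where tdTom- cells had 0 UMIs, and grey marks genes with under 20 UMIs. The points lie right of the 2-fold line in both matched blood groups, from 0.30 to 2.81 in the Fcer1g-led sub-cluster for the 9 genes tested, and from -0.14 to 1.49 in endothelial-like cells for the 6 genes tested, where Fcer1g alone passes 2-fold.

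In 2 blood sub-clusters both fractions had more than 20 cells without matching. The smaller, erythroid-like one led by Cdkn1a held 32 tdTom+ and 56 tdTom- cells, where 11.5% of 5600 genes were at least 2-fold higher and 5.12% lower in tdTom+ cells. Only Plac8 and Laptm5 (2 of 10 members, both higher, 0 lower) reached 20 UMIs, and they did so through the tdTom+ cells. Plac8 was at 111 and 2.06 CPM, or 5.75 on the log2 scale (3.83 to 8.83). Laptm5 was at 51.7 and 1.03 CPM, or 5.65 on that scale (3.05 to 11). Their tdTom- values rest on 2 UMIs and 1 UMI, and with cells thinned to 5000 UMIs 0 members could be tested. Cpa3 had 16 UMIs (29.5 CPM) against 0, under the minimum of 20, and the other 7 members had 5 or fewer UMIs. These cells were unlike as well, with globin at 1.08% against 14.3% of the UMIs and summed erythroid markers at 9707 against 134956 CPM (7 of 7 lower), whose part in the result was not tested.

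The second was the Fcer1g-led sub-cluster. Here 6 of the 9 members tested were at least 2-fold higher in the 205 tdTom+ than in the 28 tdTom- cells, beside 8.14% of 8540 genes, and 0 were lower, beside 4.38%. Globin took 0.0678% and 0.0701% of the UMIs here. The 4 genes with the largest folds were 3 granule genes and Plac8. Mpo was at 109 and 15.6 CPM, a log2 fold of 2.81 (1.75 to 4.13), and Srgn at 122 and 17.8 CPM, a log2 fold of 2.77 (1.78 to 3.99). Prtn3 was at 103 and 20.02 CPM, a log2 fold of 2.36 (1.42 to 3.5), and Plac8 at 297 and 57.8 CPM, also 2.36 (1.80 to 2.98). Their tdTom- values rest on 7 to 26 UMIs. The adaptor Tyrobp (267 and 107 CPM, log2 fold 1.32) and Coro1a (296 and 125 CPM, 1.25) passed 2-fold by less. Fcer1g (575 and 322 CPM, 0.83) and Alox5ap (334 and 238 CPM, 0.49) did not pass it, and the interval of Laptm5 reached 0 (183 and 149 CPM, 0.30, -0.06 to 0.68). Cpa3 had 8 UMIs against 1 (2.06 and 2.22 CPM) and was not tested. Of 6 myeloid markers tested (of 7) in these cells, 0 were at least 2-fold higher and 2 lower in tdTom+ cells, with a summed level of 151 CPM in tdTom+ against 256 CPM in tdTom- cells. The 2 lower ones were Lyz2, the lysozyme of macrophages and granulocytes (25.0 and 136 CPM), and C1qb, a complement subunit made by macrophages (2 UMIs against 18). Csf1r, the receptor that macrophages need, was at 16.7 and 8.90 CPM, and Cd52 had 29 UMIs (7.47 CPM) against 0. Endothelial markers were at 417 and 656 CPM summed, with 0 of 5 tested higher and 1 lower. Progenitor markers were at 609 and 458 CPM (2 of 6 higher) and megakaryocyte markers at 164 and 282 CPM (1 of 4 tested lower). Spi1 was at 491 and 289 CPM, and Gata1 at 2.58 and 11.1 CPM (10 and 5 UMIs). What these markers, Spi1 and Gata1 contribute to the member values was not tested.

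Endothelial-like cells of the 2 fractions (479 and 352 cells) showed little of this. Only Fcer1g, of the 6 members tested, was past 2-fold (24 against 6 UMIs, log2 fold 1.49, 0.16 to 3.07), beside 1.16% of 10580 genes, and 0 were lower, beside 1.43%. Of its 24 tdTom+ UMIs, 19 lay in 7 cells of 1 sub-cluster, led by Lyve1. With called doublets kept its log2 fold was 0.74, and in thinned cells it had too few UMIs to be tested, so 0 members passed in either case. Plac8 was at 12.4 and 11.3 CPM, a log2 fold of 0.14 (-0.32 to 0.61), and Laptm5 at 7.19 and 5.89 CPM, 0.29 (-0.35 to 0.94). Cpa3 had 1 UMI in tdTom+ and 0 in tdTom- cells, too few to show a difference at this depth. Globin took 0.0206% of the UMIs of the tdTom+ and 0.159% of those of the tdTom- cells, and its part in these values was not tested.

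Blood cells were then split by globin and Spi1. A cell had globin where the globin share of its UMIs was above the 99th percentile of neural-like cells of the same library (0.0760% in tdTom+, 0.413% in tdTom-), and Spi1 where it held at least 1 spliced Spi1 UMI. Such strata are ranges of a score and not cell types. Of tdTom+ cells, 696 had globin only, 659 had globin and Spi1, 229 had Spi1 only and 32 had neither. Of tdTom- cells, 1383 had globin only, 31 had both, 43 had Spi1 only and 21 had neither.

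In cells with globin and no Spi1 UMI, 4 of 6 members tested were at least 2-fold higher in tdTom+ cells, beside 9.19% of 10666 genes, and 0 were lower, beside 4.66%. Cpa3 had 245 UMIs (16.6 CPM) against 1 (0.0374 CPM), a log2 fold of 8.79 (6.30 to 14.10). Plac8 was at 64.0 and 6.74 CPM, a log2 fold of 3.25 (3.02 to 3.49). Laptm5 was at 17.6 and 1.23 CPM, a log2 fold of 3.84 (3.31 to 4.40). Plac8 and Laptm5 held 180 and 33 tdTom- UMIs, whereas Cpa3 reached the minimum of 20 through the tdTom+ cells. The values of these 3 genes were higher in tdTom+ cells with no spliced Spi1 UMI. Such cells may still hold Spi1 transcripts, and 15 unspliced Spi1 UMIs were counted in the tdTom+ and 5 in the tdTom- cells of this stratum. The cells of this stratum were unlike between the fractions, with globin at 2.27% against 9.98% of the UMIs, summed erythroid markers at 20988 against 95071 CPM (6 of 7 lower) and summed progenitor markers at 754 against 271 CPM (4 of 6 higher, 1 lower). Their part in the result was not tested. Fcer1g (2.17 and 0.823 CPM, 1.40) also passed. The levels of Srgn (0.542 and 0.486 CPM) and Prtn3 (0.610 and 0.674 CPM) lay within their counting error of each other, and Mpo, Tyrobp, Alox5ap and Coro1a had under 20 UMIs. With strata drawn on cells thinned to 5000 UMIs, where more cells show no Spi1, 7 of 7 members tested passed 2-fold, with the share of all genes not recomputed.

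In cells with both globin and Spi1, all 10 members passed 2-fold (0 lower), where 11.3% of 9792 genes were higher and 5.3% lower. The 31 tdTom- cells held few UMIs, so most members reached the minimum of 20 through the tdTom+ cells alone. Of the members, 6 (Cpa3, Srgn, Mpo, Tyrobp, Alox5ap and Coro1a) had 0 UMIs in them, against 221 to 536 in tdTom+ cells. With the floor of 3 counts they were 3.16-fold (Mpo) to 7.65-fold (Coro1a) higher, and Tyrobp, at 276 UMIs, 3.94-fold. Plac8 was at 225 and 6.22 CPM, a log2 fold of 5.18 (3.82 to 7.06), and Laptm5 at 88.7 and 17.1 CPM, 2.38 (1.53 to 3.38). Fcer1g had 978 UMIs against 1, a log2 fold of 5.39 (2.91 to 10.69). Of the 659 tdTom+ cells, 31 belonged to the Fcer1g-led sub-cluster. Without them Tyrobp had 81 UMIs in place of 276, Mpo 101 in place of 221, Coro1a 266 in place of 536 and Srgn 304 in place of 485, Cpa3 had 403 in place of 404, and 8 of 10 members passed 2-fold. Summed erythroid markers were at 16191 CPM in tdTom+ against 72880 CPM in tdTom- cells here (5 of 7 lower), and their part in the result was not tested. Prtn3, at 14.4 and 4.66 CPM, had a log2 fold of 1.62 (0.06 to 3.91) with 3 tdTom- UMIs. Spi1 itself was at 169 CPM in the tdTom+ against 59.1 CPM in the tdTom- cells of this stratum, and with at least 2 Spi1 UMIs asked for, 3 of 10 members passed 2-fold.

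In cells with Spi1 and no globin, 7 of 10 members passed 2-fold, beside 5.66% of 8821 genes (0 lower, beside 3.59%), and 73.8% of the tdTom+ and 60.5% of the tdTom- cells belonged to the Fcer1g-led sub-cluster. Spi1 itself was at 402 against 199 CPM and Gata1 at 6.83 against 63.2 CPM, with summed erythroid markers at 213 against 1017 CPM (5 of 5 tested lower), and their part in the result was not tested. Plac8 had a log2 fold of 2.51 and Mpo of 2.50, whereas Fcer1g (408 and 221 CPM, 0.88), Alox5ap (243 and 157 CPM, 0.63) and Laptm5 (152 and 126 CPM, 0.27) lay below 2-fold. Cpa3 passed on 20 UMIs against 1 with an interval that reached below 0 (1.80, -0.84 to 7.17). Without the Fcer1g-led cells 4 of 9 members passed.

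In cells with neither, 3 of 5 members tested were at least 2-fold lower in tdTom+ cells, beside 6.11% of 5124 genes, and 1 of 5, Plac8, was higher (1.95, 0.43 to 3.93), beside 2.52%. Fcer1g was at 25.3 and 109 CPM, a log2 fold of -2.11 (-3.04 to -1.24), Alox5ap at 11.1 and 34.5 CPM, -1.64 (-3.21 to -0.21), and Coro1a at 14.2 and 37.1 CPM, -1.39 (-2.77 to -0.07). The direction of these 3 genes was thus the opposite of that in all other strata in which they were tested. Of the 21 tdTom- cells, 15 were megakaryocyte-like against 0 of the 32 tdTom+ cells, with summed megakaryocyte markers at 329 and 61.6 CPM, and their part in the result was not tested. With strata drawn on thinned cells the log2 folds were 0.032 for Fcer1g, 0.28 for Alox5ap and 0.57 for Coro1a.

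**Figure D4:**
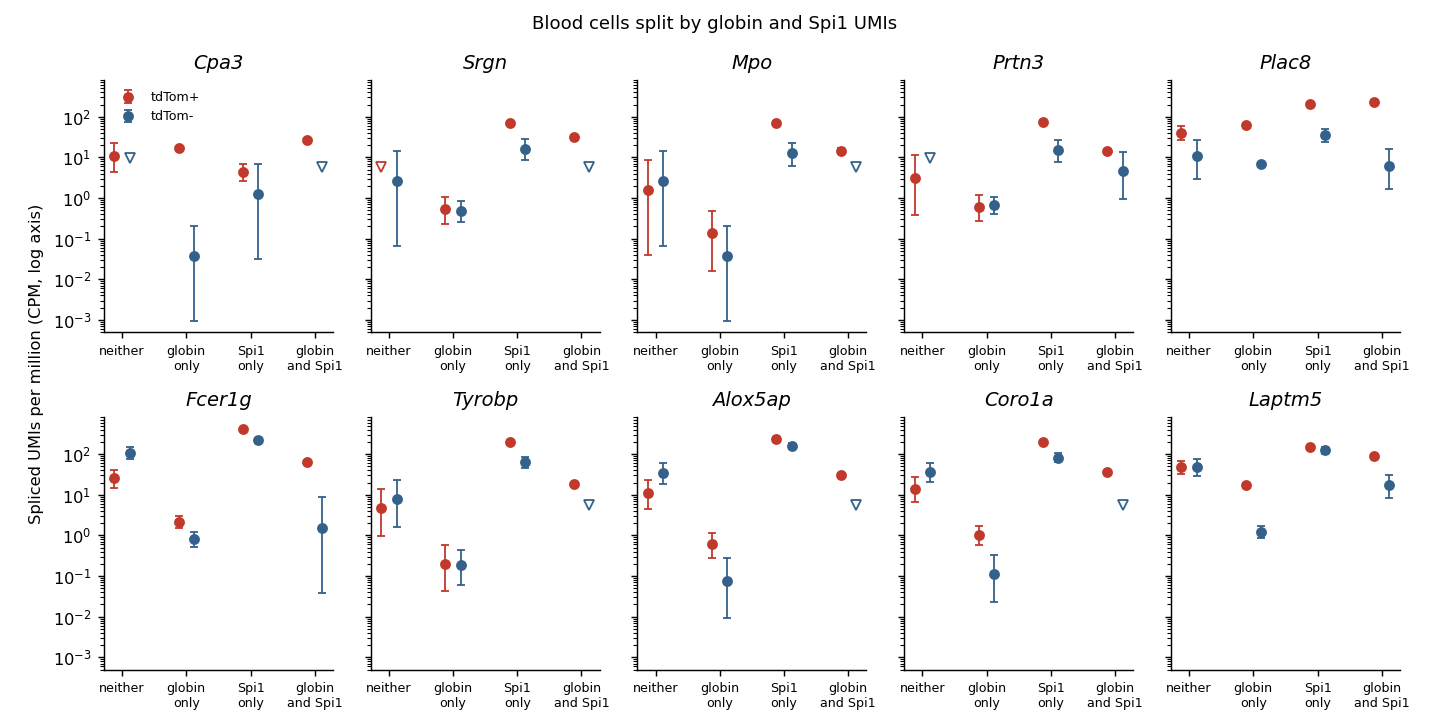
Level of each member in tdTom+ and tdTom- blood cells split by globin and Spi1 UMIs, in CPM on a log axis with exact Poisson 95% intervals, where open triangles stand for 0 UMIs at the upper bound. In cells with globin only, the intervals of Cpa3, Plac8, Laptm5 and Fcer1g lie apart between the fractions. Those of Coro1a and Alox5ap, with under 20 UMIs, lie apart as well. Srgn, Mpo, Prtn3 and Tyrobp were at 0.61 CPM or less there in tdTom+ cells.

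Within tdTom+ blood cells, 9 of the 10 members had higher levels the more Spi1 UMIs the cell held. Over cells with 0, 1, 2 to 3, 4 to 7 and at least 8 Spi1 UMIs (728, 257, 239, 208 and 184 cells), Mpo was at 0.195, 0.878, 9.41, 21.1 and 99.3 CPM. Tyrobp was at 0.390, 0.527, 9.41, 36.6 and 237 CPM. The gradient of Laptm5 was shallower, at 18.9, 42.1, 69.2, 124 and 214 CPM, as was that of Plac8, at 63.1, 107, 158, 213 and 472 CPM. Both were thus well above 0 in cells with no Spi1 UMI. Between cells with 0 and 1 Spi1 UMI the counting intervals of Mpo, Prtn3, Tyrobp and Coro1a overlapped. They rested on 3 and 5, 11 and 6, 6 and 3, and 24 and 17 UMIs, so this first step lay within counting error for these genes. Cpa3 did not follow the order of the bins, with 16.4, 16.2, 31.6, 26.6 and 10.6 CPM. The globin share fell by bin from 2.18% to 0.647%, and the median depth lay between 19935.5 and 21765 UMIs. After thinning, where 4 bins up to 4 to 7 Spi1 UMIs were compared and the last was not, 9 members again had their levels in the order of the bins. Without the Fcer1g-led cells this held for 8 members and not for Tyrobp, which had 0.261 and 0.181 CPM in cells with 0 and 1 Spi1 UMI, and Cpa3 was at 16.4, 16.6, 34.1, 34.4 and 20.9 CPM over the 5 bins. The bins are not independent of a cell's depth or class, and this is a description of 1 library.

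**Figure D5:**
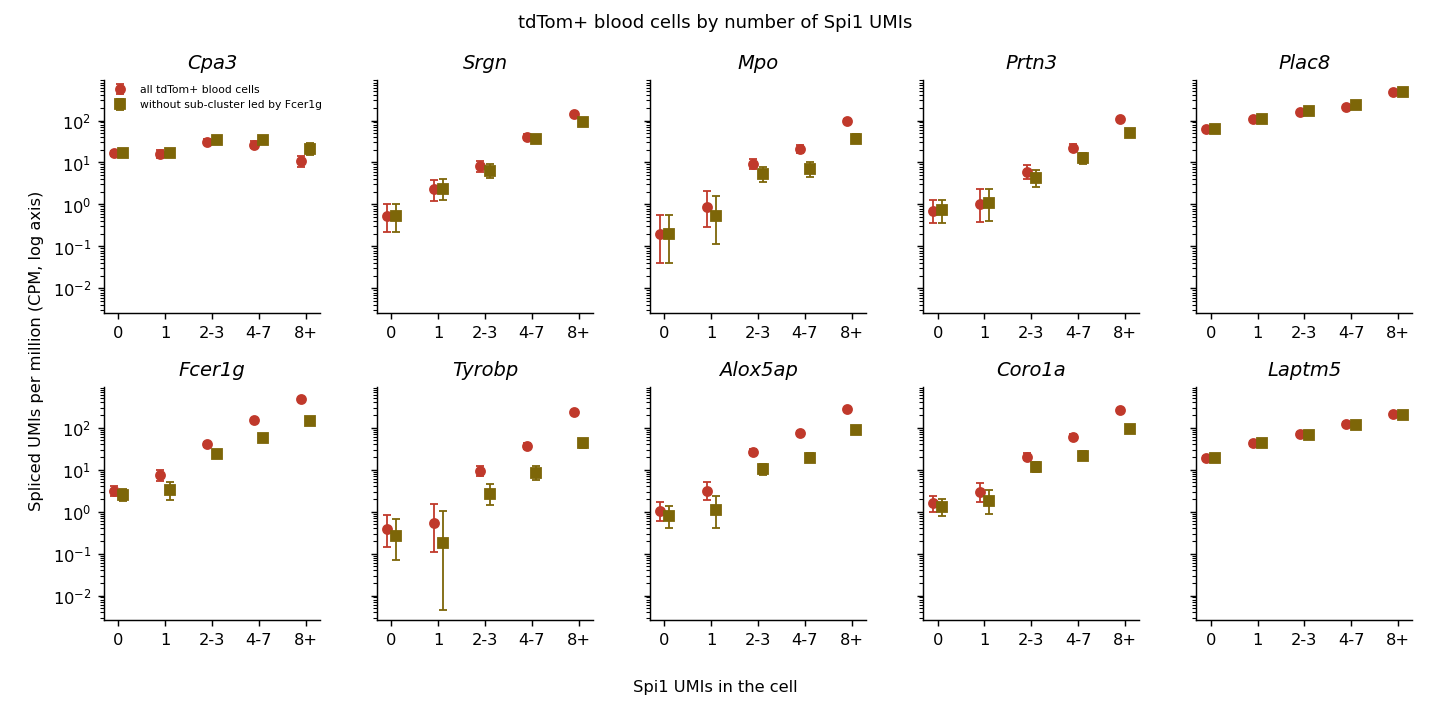
Level of each member in tdTom+ blood cells by the number of Spi1 UMIs in the cell, in CPM on a log axis with exact Poisson 95% intervals, with all cells as circles and cells outside the Fcer1g-led sub-cluster as squares. Levels climb with Spi1 for 9 members, from 0.195 to 99.3 CPM for Mpo, and Cpa3 stays between 10.6 and 31.6 CPM in all cells.

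Detection in the same cell was compared between Cpa3 and the other granule genes. In tdTom+ blood cells thinned to 5000 UMIs, 76 cells held Mpo, and of these 86.8% also held Spi1, 82.9% Fcer1g and 61.8% Srgn, beside 30.7%, 14.2% and 6.99% of all tdTom+ blood cells. Of the 95 cells with Cpa3, 29.5% also held Spi1, 3.16% held Fcer1g and 1.05% held Mpo, which 4.74% of all tdTom+ blood cells held, while 93.7% had globin, beside 83.7% of all. Over all tdTom+ blood cells, those with Mpo thus held Spi1 and Fcer1g at shares above the base, and those with Cpa3 did not. Mpo itself was too sparse to compare the pair. The base changes without the Fcer1g-led cells. Of the 94 cells with Cpa3 that remained, 28.7% also held Spi1, beside 23.6% of all 1400, and 93.6% had globin, beside 93.2%. Of the 20 cells with Mpo that remained, 80% also held Spi1. Of the 118 cells with Tyrobp, 85.6% also held its fellow adaptor Fcer1g. A tdTom+ blood cell held 1.27 of the 10 members on average and a tdTom- cell 0.114, and at least 5 members were found in 7.86% and 0.347% of cells.

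The unspliced layer set Cpa3 and Mpo apart as well. In tdTom+ blood cells 13.9% (11.5% to 16.5%) of Cpa3 and 12.9% (10.4% to 15.8%) of Mpo molecules were unspliced. Srgn was at 5.77%, and the other 7 members were at 0.513% (Tyrobp) to 2.21% (Prtn3). For Mpo the share was 24.4% in blood progenitor-like and 8.64% in Fcer1g-led tdTom+ cells. Cpa3, Srgn, Mpo, Tyrobp, Alox5ap and Coro1a had too few tdTom- molecules (139 or fewer) to compare the layers between fractions. Prtn3 had 2.21% (1.18% to 3.76%) unspliced in tdTom+ and 15.4% (5.86% to 30.5%) in tdTom- blood cells, the latter on 6 unspliced UMIs. In tdTom- neural-like cells the Prtn3 share was 31.0%, and the cause of these shares was not tested. Plac8 had 1.16% unspliced in tdTom+ and 1.37% in tdTom- cells, and Fcer1g 1.17% and 3.24% (1.41% to 6.28%). Intron length, priming within introns and overlapping genes can set such shares. By position, 5 members overlap another gene. Cpa3 holds Mir7007 on its own strand, Mpo has the antisense gene Gm11505, Alox5ap has Gm19719 and an rRNA gene, Prtn3 has Plppr3 and Coro1a has Bola2 on the opposite strand.

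Other genes of these pathways were counted over lists. Of 11 genes of Fc receptor and ITAM signalling tested in all blood cells (of 18 listed), 11 were at least 2-fold higher in tdTom+ cells, with a median log2 fold of 2.66, beside the 15.5% of all genes given above. They included Syk, the kinase that binds ITAMs (27.8 and 3.78 CPM, 2.88), its substrate Plcg2 (19.6 and 2.49 CPM, 2.98), the phosphatase Ptpn6 (44.5 and 7.04 CPM, 2.66) and the kinase Lyn (12.7 and 4.49 CPM, 1.5). Of 14 cytoskeletal and membrane genes 11 were higher (median 2.92), with Arhgdib at 202 and 23.0 CPM and Arpc1b at 159 and 19.2 CPM. Most genes tested of these lists were higher as well, in a comparison of unlike cells. Here and in the lists below, a gene with few tdTom- UMIs reaches the minimum of 20 through the tdTom+ cells. The lists were also chosen with earlier results of these data known, so their counts are no support for a difference.

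Counts for the granule and leukotriene lists varied. Of 8 primary granule genes tested (of 12), 7 were higher, among them Cst7 (138 against 1 UMI, 6.82, 4.31 to 12.13) and the widely expressed Cd63 (194 and 47.8 CPM, 2.02) and Calr (976 and 471 CPM, 1.05). Elane, the neutrophil elastase, had 0 UMIs in both fractions. No mast cell gene of 9 listed could be tested, with 2 Hdc UMIs in tdTom+ blood cells and 0 of Cma1, Fcer1a and Gzmb. The floor of 3 counts stands at 0.0859 CPM in these cells and is not an upper limit. Cpa3 was thus seen with 2 or fewer UMIs of each of these named companions at this depth. Of 7 leukotriene genes tested, 4 were higher, with Alox5, the enzyme that Alox5ap serves, at 7.76 and 1.65 CPM (2.24) and Lta4h at 46.4 and 34.0 CPM (0.45).

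The same lists were counted in the smaller groups. In matched early erythroid-like cells, where 10% of all genes were higher, the counts at least 2-fold higher were 8 of 8 for ITAM signalling, 6 of 11 for the cytoskeleton (2 lower), 3 of 5 for primary granules and 2 of 4 for leukotrienes. In matched megakaryocyte-like cells, where 5.18% of all genes were higher, they were 4 of 8, 3 of 9 (2 lower), 1 of 3 and 0 of 4. In the Fcer1g-led sub-cluster, where 8.14% of all genes were higher, they were 1 of 10, 5 of 14 (1 lower), 0 of 6 and 0 of 5, so that 3 of these lists lay near the share of all genes.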

How the data were processed

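The authors aligned reads to mm10 (GRCm38) with Cell Ranger 3.0.2 (per the labels), called and filtered cells, separated spliced and unspliced molecules with velocyto and deposited the UMI counts of both layers as they were, not normalized. The deposited quality metrics give the mitochondrial percent of 8983 tdTom+ and 9256 tdTom- cells, slightly more than the barcodes with counts. The authors' cell types and doublet calls were not used. The libraries held 167940767 and 157174026 spliced UMIs over 8981 tdTom+ and 9252 tdTom- barcodes.

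Scrublet was run on each library and called 415 and 591 doublets, which were left out with a cluster of 94.3% called cells. Cells were clustered (Leiden resolution 1.5 for the embryo and 1 for haemato-endothelial cells) on 2097 and 2047 variable genes, without 88 genes of the lists and strata. A name needs at least 3 markers raised 2-fold with 10 CPM added. After the data were seen, a name was also made to need a marker among the 10 leading genes, so the unnamed Fcer1g-led sub-cluster stands where a myeloid-like group was planned. UMIs were summed per group and divided by the spliced total of the group. Intervals are exact (Poisson, Clopper-Pearson, and conditional for folds), a gene was tested with at least 20 UMIs, and a count of 0 was read with a floor of 3 counts. "Tested" means compared with 2-fold, since 1 library per fraction allows no test between fractions. The genes named are the 10 members, Spi1, Gata1 and the globin genes, up to 4 genes with the most UMIs per list, and the genes most like the members in profile. Elane was named outside this rule. The myeloid markers named and the Cdkn1a-led sub-cluster were chosen after their values were seen. The members and lists were chosen with earlier results of these data known. The intervals were run on simulated Poisson counts. These hold none of the clumping of UMIs in single cells, so that run does not check the width of the intervals for these data. No protein sequence is printed. Positions are from GENCODE M21. Software was scanpy 1.11.5, scikit-learn 1.9.0, igraph 0.11.9, leidenalg 0.10.2, matplotlib 3.10.9, pandas 2.3.3, scipy 1.17.1 and numpy 2.4.6 under Python 3.11.15.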

Additional observations from a re-analysis of the deposited data

Results flagged for a closer look

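Fcer1g, Alox5ap and Coro1a had opposite directions in different blood cells. Fcer1g had a log2 fold of tdTom+ over tdTom- of -2.11 in cells with neither globin nor Spi1 and of 3.30 in all blood cells. Alox5ap had -1.64 in cells with neither and 3.23 in all blood cells, and Coro1a had -1.39 in cells with neither and 1.31 in cells with Spi1 only. The differences between these groups were not tested. Of the 21 tdTom- cells with neither, 15 were megakaryocyte-like, against 0 of the 32 tdTom+ cells. With strata drawn on thinned cells the 3 folds were 0.032, 0.28 and 0.57.

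A pair of members was abundant in clusters outside blood and endothelium. Srgn was at 1968 CPM (498 UMIs) in 20 tdTom- cells of a cluster led by Srgn and Col4a1, in which Fcer1g was at 51.4 CPM (13 UMIs). Plac8 was at 631 CPM in tdTom- against 545 CPM in tdTom+ cells of a cluster led by Tac2, at 520 and 376 CPM in one led by Postn, and at 331 and 338 CPM in one led by Tdo2. Its level in tdTom+ blood was therefore exceeded in cells of both fractions outside blood.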

How the results depend on the processing

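No paired analysis was possible because each fraction is 1 library. Over all blood cells, 10 of 10 members were at least 2-fold higher under every alternative tried. The share of all genes past 2-fold was not recomputed under any alternative, so the counts here have no such share beside them. Of 591 recomputed log2 folds, 470 stayed within their counting interval, 114 left it and 7 that were at least 2-fold in the main setting changed sign. Smaller folds that changed sign are counted with the 470 or the 114. Of 97 recomputed counts, 75 lay within 1.5 times the reported one, and of 40 shares of cells 34 moved with the depth. All 20 unspliced shares held when called doublets were kept. With at least 100 UMIs asked for, the members at least 2-fold higher were 6 of 6 in early erythroid-like, 6 of 6 in megakaryocyte-like, 0 of 2 in endothelial-like and 0 of 0 in cells with neither globin nor Spi1. Matching by cosine distance gave 6 of 7 in early erythroid-like cells, with Prtn3 at -0.57, and put Fcer1g at -0.081 in megakaryocyte-like cells. Without matching, the marker-named cells gave 2 of 2 in erythroid-like cells (35 against 1385 cells) and 3 of 4 in megakaryocyte-like cells, with Laptm5 at -0.067, where the tdTom+ side is 1 cell with 1 or 2 UMIs of 3 of these genes and says nothing about the members. In endothelial-like cells thinning and keeping doublets both gave 0. In the Cdkn1a-led sub-cluster, all of whose alternatives were chosen after seeing the data, no minimum gave 7 of 9, and at least 100 UMIs and thinning both gave 0 of 0. In cells with neither globin nor Spi1, thinning gave 0 of 0 and put Alox5ap at 0.059, a globin limit of 1% gave 2 of 6, and strata from thinned cells gave 2 of 6, with Fcer1g at 0.032, Alox5ap at 0.28 and Coro1a at 0.57. In cells with globin only, no minimum gave 7 of 10 and strata from thinned cells 7 of 7. Spi1 only gave 4 of 9 without the Fcer1g-led sub-cluster, an alternative chosen after seeing the data. In cells with globin and Spi1, thinning gave 5, a globin limit of 1% gave 6, at least 2 Spi1 UMIs gave 3 and strata from thinned cells gave 3, all of 10. Floor values against 0 UMIs shrink with fewer molecules by construction, and the cause was not tested for the others. Depth limits Cpa3, Srgn and Mpo in tdTom- blood, with 2, 27 and 12 UMIs.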

Other observations

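Genes whose level over 23 sub-cluster and fraction groups was most like that of the members were searched among 10303 genes, on the log2(CPM + 10) scale, as a description in which groups share libraries. The mean profile of the members was most like those of Plcg2 (Pearson r 0.963), Lrmp (0.962), Ptk2b (0.95), Angpt1 (0.946) and Tnfaip8l2 (0.944). Cpa3 was most like Sync (0.981) and Slc30a2 (0.969), a zinc transporter, and its best match among the members was Plac8 (0.769). Mpo and Prtn3 were most alike of the granule genes (0.979), and both had Traf3ip3 as the gene nearest to them (0.987 and 0.979). Laptm5 had Ptpn7 (0.964) and Spi1 itself (0.963) as its nearest genes, while Spi1 had an r of 0.596 with Cpa3.

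Tyrobp was found at 11.4 CPM (36 UMIs) in 180 tdTom+ cells of a cluster led by the heart muscle genes Myl3 and Actc1, in which the 130 tdTom- cells had 0 UMIs. Mpo was at 3.15 CPM (10 UMIs) in the same tdTom+ cells and had 0 UMIs in the tdTom- cells. Fcer1g had 17 UMIs (5.36 CPM) against 2 (0.942 CPM) there and Coro1a 15 against 0, while Cpa3 had 0 in both. How many cells held these UMIs was not counted, so they are not read as expression in heart muscle cells.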
